A study of Rattus norvegicus with 23 samples.

Results

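Male muscle-derived stem cells (MDSC) labelled as coming from rats with early diabetes (ED-MDSC) were compared after culture with rat serum and without it, by sequencing of their small RNA. Of the 23 libraries of the series, 3 carry the comparison. They are ED-MDSC without addition (C), with 5% serum of lean Zucker rats (LZ serum) and with 5% serum of obese Zucker rats (OZ serum). The study's text gives 4 days of culture for its stem cells of female rats and no time for ED-MDSC. The study names male rats of 32 weeks as donors of these sera. The obese strain is the dyslipidemic model of type 2 diabetes and obesity, and the lean strain is its non-diabetic counterpart. All ED-MDSC libraries share the donor strain and the early stage, since the study's methods place the cells in male obese Zucker rats of 12 weeks with mild hyperglycemia. There was 1 library per condition, so that each pair with C was compared as a ratio of libraries, with a counting interval and no test. The study prints levels for untreated stem cells of female obese rats and their ratios to its untreated ED-MDSC. These imply far more miR-10a-5p and less miR-21-5p in its ED-MDSC than C holds here. Whether the study's values came from this library was not tested, and the name ED-MDSC rests here on the labels alone. Those labels give the quadriceps as the muscle, where the study's text gives the gastrocnemius, and no source tells how many rats or cultures a library stands for.

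The table lists 792 microRNA (miR) entries, and 271 of them were at 0 in all 3 libraries. Entries averaging 10 or more reads in a pair were measured, which left 288 for OZ serum against C and 291 for LZ serum against C. Just inside that minimum in the pair with OZ serum, let-7e-3p had 13 reads in C and 7 with serum, and just outside it miR-200b-3p had 12 and 7. Levels are given as reads per 1000000 miR reads of the library (RPM). Also in the run were ED-MDSC with albumin, with cyclodextrin and with water-soluble cholesterol, which hold no rat serum, and LD-MDSC, the stem cells of male rats of 32 weeks with late diabetes. Runs were told apart only by the prefix of the library titles. Further stem cells were used only for comparison. They were ND-MDSC, male cells labelled as non-diabetic (C and OZ serum), and ZF4-SC and ZL4-SC from pelvic floor muscle of female obese and lean rats (C, LZ serum and OZ serum). The labels give their sera the same names, where the study's text names female rats of 24 weeks as the donors.

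MiRs are short RNAs that guide the Argonaute proteins to matching messenger RNAs and lower their translation and stability. Bases 2 to 8 of a miR, the seed, do most of the pairing, so that miRs with 1 seed share many targets. A hairpin precursor gives a strand from its 5′ arm and a strand from its 3′ arm, and neighbouring hairpins are often cut from a single transcript. MDSC are multipotent cells of skeletal muscle that can turn to the muscle, fat or fibroblast-like lineage, and the study asked how dyslipidemic serum affects them.

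The sequences of the miRs on which the results turn are printed from RefSeq (rat build GRCr8), with the seed in capitals. Of 303 miRs measured in either pair, 266 had a mature sequence there. The first set was lower with both sera, and the second was higher. The third, which moved with the sera and with albumin, holds miR-451-5p and miR-142-5p of the blood-cell list, and miR-363-3p, which is not on it.
miR-132-3p: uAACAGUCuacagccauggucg
miR-212-3p: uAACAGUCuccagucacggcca
miR-212-5p: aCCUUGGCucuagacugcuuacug
miR-146a-5p: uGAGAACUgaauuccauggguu
miR-146b-5p: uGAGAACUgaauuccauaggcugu
miR-199a-5p: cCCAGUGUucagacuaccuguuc
miR-214-3p: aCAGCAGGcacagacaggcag
miR-195-5p: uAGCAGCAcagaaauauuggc
miR-10a-5p: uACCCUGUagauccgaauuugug
miR-10b-5p: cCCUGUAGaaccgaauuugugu
miR-708-5p: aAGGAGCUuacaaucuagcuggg
miR-9a-5p: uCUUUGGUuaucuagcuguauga
miR-27b-3p: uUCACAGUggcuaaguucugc
miR-24-3p: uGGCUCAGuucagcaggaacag
miR-451-5p: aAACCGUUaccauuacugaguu
miR-142-5p: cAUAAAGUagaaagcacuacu
miR-363-3p: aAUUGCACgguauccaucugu

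On GRCr8, miR-132-3p lies at chr10:60522091-60522112 and miR-212-3p on the same strand at chr10:60521811-60521832. MiR-146a-5p is at chr10:28350053-28350074 on the minus strand, and miR-146b-5p is on another chromosome, at chr1:255144874-255144897. MiR-199a-5p (chr13:77116255-77116277) and miR-214-3p (chr13:77121713-77121733) are neighbours on the plus strand. MiR-10a-5p (chr10:81779730-81779752) and miR-10b-5p (chr3:80035886-80035907) lie apart, and miR-708-5p is at chr1:160011168-160011190.

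Depth was 3840523 miR reads for C, 3335393 for LZ serum and 2511819 for OZ serum, and 1701574 to 2084013 for the 3 other ED-MDSC libraries. The libraries also differed at the top. The 15 miRs with the most reads in C held 85.5% of the reads there, 82.8% to 83.1% with albumin, cyclodextrin or cholesterol, 73.4% with LZ serum and 72.5% with OZ serum. MiR-21-5p, an abundant miR linked to fibrosis and growth, led in C with 19.0% of the reads and had 13.6% to 16.1% in the 3 other libraries without rat serum, and 7.58% and 11.1% with LZ and OZ serum. MiR-143-3p, typical of smooth muscle and mesenchymal cells, led in every other library of the run, with 17.4% to 21.0% in those 3, 28.3% with LZ serum and 21.3% with OZ serum, against 15.9% in C. The median ratio to C was 1.56 with OZ serum and 1.49 with LZ serum. Library sizes set by the trimmed mean of M-values (TMM) lower each log2 ratio by 0.75 in the OZ pair and by 0.56 in the LZ pair, and give medians of 0.931 and 1.01. Ratios are given on library totals, with the TMM ratio where it matters. Of the 10 striated muscle miRs listed, 6 were at 0 in all 6 ED-MDSC libraries, among them miR-1-3p and miR-133a-3p, and the 10 summed to 5.61 to 12.3 RPM. Let-7a-5p, which most cells hold, is also listed at 0, so that a 0 in this table was not read as absence.

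With OZ serum, 106 of the 288 measured miRs were at least 2-fold higher than in C with an interval that excluded 1 (36.8%), and 43 were at least 2-fold lower (14.9%). With LZ serum the counts were 99 of 291 higher (34% of the measured) and 47 lower (16.2%). On TMM library sizes the balance turned, with 46 higher (16%) and 64 lower (22.2%) for OZ serum, and 45 higher (15.5%) and 65 lower (22.3%) for LZ serum. Most of the largest differences in either direction were outside the reach of that shift, as the plot of ratios by level shows.

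**Figure D1:**
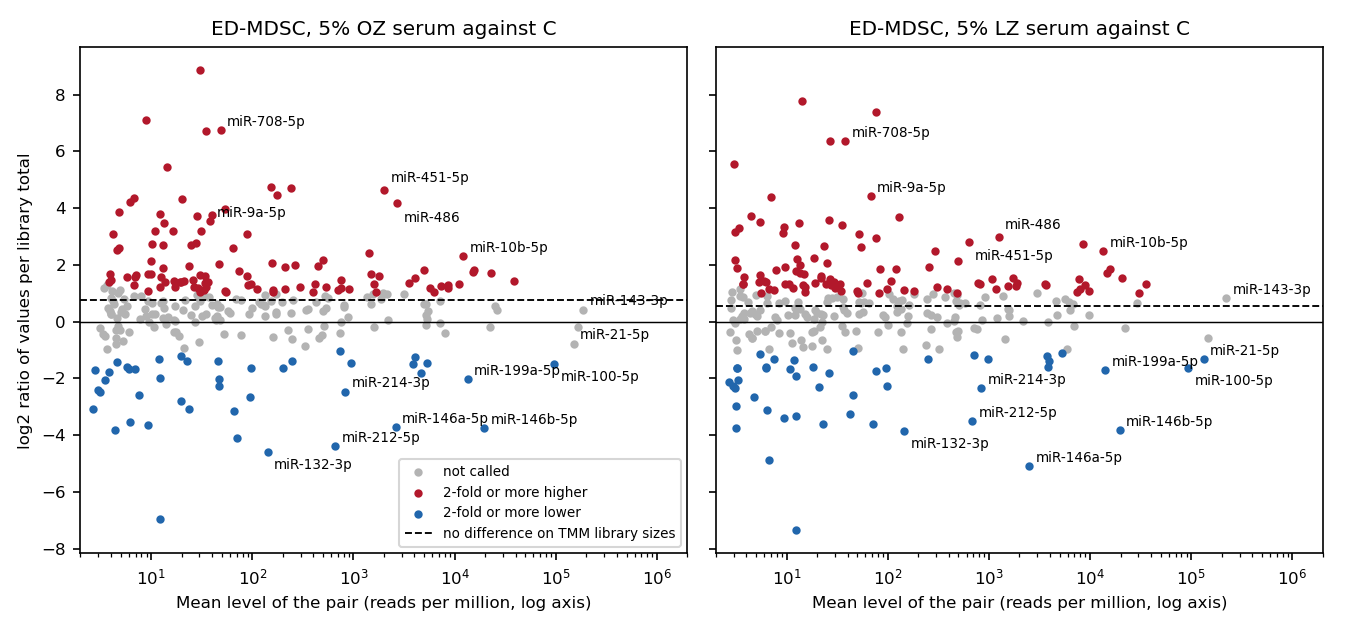
Each point is a miR measured in ED-MDSC with OZ serum (left) or LZ serum (right) against C. The x axis is the mean level of the pair in RPM (log axis), the y axis is the log2 ratio of values per library total, and the dashed line marks equal values on TMM library sizes (0.75 and 0.56). The miR-132/miR-212 and miR-146 miRs lie low in both panels and miR-708-5p high, while the lowest point in each is miR-1247-5p, at 0 reads with serum, and the highest is miR-383-5p, at 0 reads in C.

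The libraries with albumin, cyclodextrin or cholesterol differed little from C. Among 141 miRs whose reads averaged 100 or more across the run, 8 differed 2-fold or more between C and albumin, 2 between C and cyclodextrin and 5 between C and cholesterol. The same count was 68 for LZ serum and 70 for OZ serum, and 50 and 51 after each pair was centred on its median. Between the serum libraries it was 13. Of 271 miRs averaging 10 or more reads across the 6 ED-MDSC libraries, 128 were above all 4 libraries without rat serum in both serum libraries (47.2%) and 61 were below all 4 in both (22.5%).

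Since those 4 libraries lay close together, the OZ and LZ serum libraries were also set against them in edgeR (quasi-likelihood, TMM, adjusted p), a test added after the data were seen. The grouping was chosen for that closeness, so the test is no independent evidence of a serum effect, and its p-values only place each miR's difference against the spread within these groups. The adjusted p-values and the counts of rises and falls cited from it below are descriptions of that kind. The test takes both sera as replicates of rat serum and C, albumin, cyclodextrin and cholesterol as replicates of none, and nothing tells whether they came from separate cultures, so that the spread may be technical. In it, 65 of the 271 miRs rose (24%) and 75 fell (27.7%). Without the OZ serum library 41 rose and 77 fell. The plot of levels by library shows the size of the steps.

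**Figure D2:**
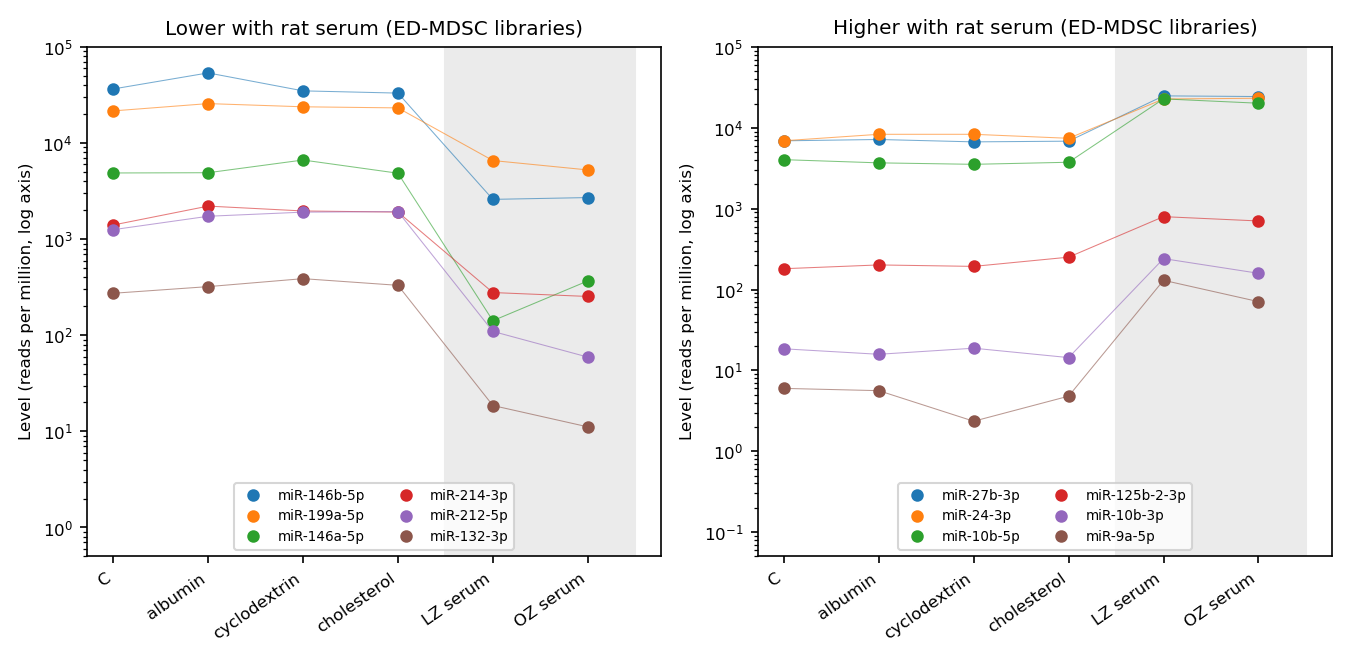
Levels of 12 miRs in the 6 ED-MDSC libraries, in RPM on a log axis, with the 2 rat serum libraries on the grey ground. Points are single libraries, and lines only join the points of a miR. The 4 libraries without rat serum lie close together for each miR, and both serum libraries lie below them on the left and above them on the right.

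MiR-132 and miR-212 are made from 1 transcript, known as a target of the factor CREB, and act in neuronal and vascular cells. With OZ serum, miR-132-3p, miR-212-5p and miR-212-3p had the lowest ratios among miRs averaging 100 or more reads in the pair. MiR-132-3p had 1051 reads in C, 629 with albumin, 661 with cyclodextrin, 690 with cholesterol, 62 with LZ serum and 28 with OZ serum. These are 274 to 388 RPM without rat serum and 18.6 and 11.1 with LZ and OZ serum. Its ratio to C was 0.0407 (95% interval 0.0269 to 0.0592) with OZ serum and 0.0679 (0.0517 to 0.0878) with LZ serum. MiR-212-5p had 4823, 3395, 3254 and 4031 reads without rat serum, in the same order, and 366 and 149 with LZ and OZ serum. For miR-212-3p the reads were 512, 275, 241 and 307 without rat serum, and 36 and 19 with LZ and OZ serum. The passenger arm miR-132-5p, with 67 reads in C, had 5 and 3. All 4 members of the list fell in the edgeR test over the ED-MDSC libraries, against 27.7% of all miRs tested. The log2 changes were -4.92 ± 0.27 (SE) for miR-132-3p, -4.80 ± 0.32 for miR-212-5p and -4.40 ± 0.24 for miR-212-3p, with edgeR adjusted p of 1.01e-05, 1.37e-05 and 1.01e-05. MiR-132-3p and miR-212-3p have the same seed and differ at 5 bases outside it, counted from the 5′ end of miR-132-3p as A10C, C14U, U17C, U20C and G22A. In LD-MDSC without serum these miRs were also low, at 25 reads of miR-132-3p and 315 of miR-212-5p.

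MiR-146a and miR-146b are induced by NF-kB and restrain signalling from Toll-like and interleukin-1 receptors by targeting TRAF6 and IRAK1. MiR-146b-5p was the fifth most abundant miR in C by reads, with 36579 RPM, and 33133 to 53758 without rat serum in all. It had 2596 RPM with LZ serum and 2711 with OZ serum, ratios of 0.071 (0.0694 to 0.0725) and 0.0741 (0.0723 to 0.0759). MiR-146a-5p had 18773, 9638, 11348 and 10126 reads in C, albumin, cyclodextrin and cholesterol, 473 with LZ serum and 924 with OZ serum. Here the sera differed, since the level with OZ serum was 2.59-fold that with LZ serum (2.32 to 2.90). The pair share the seed and differ at G18A and U21C, counted from the 5′ end of miR-146a-5p. MiR-155-5p, another NF-kB target that promotes inflammation, moved far less, with ratios of 0.727 and 0.772 for OZ and LZ serum. All 4 measured members of the NF-kB list fell in the edgeR test over the ED-MDSC libraries, against 27.7% of all miRs tested, by -4.88 ± 0.43 (SE, adjusted p = 4.65e-05) for miR-146a-5p and -0.82 ± 0.20 (adjusted p = 0.0109) for miR-155-5p. LD-MDSC had 1336 RPM of miR-146a-5p and 1802 of miR-146b-5p.

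MiR-199a and miR-214 come from the Dnm3os transcript, which is active in mesenchymal and fibrogenic cells. All 3 measured members were at least 2-fold lower with both sera, against 14.9% of all measured miRs with OZ serum and 16.2% with LZ serum. MiR-199a-5p, at 21628 to 25763 RPM without rat serum, was at 6585 with LZ serum and 5257 with OZ serum. MiR-214-3p, which targets Ezh2 in muscle cells of the mouse, was at 1405 to 2210 without rat serum and at 279 and 254 with LZ and OZ serum. Ratios of miR-214-3p to C were 0.198 (0.185 to 0.213) for LZ serum and 0.181 (0.166 to 0.196) for OZ serum. In the edgeR test miR-214-3p changed by -3.29 ± 0.19 (SE, adjusted p = 1.01e-05), miR-199a-5p by -2.48 ± 0.17 (1.94e-05) and miR-199a-3p by -2.21 ± 0.24 (0.000119).

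Several abundant miRs of C were part of the fall. MiR-100-5p, a regulator of mTOR, was at 122125 to 142149 RPM without rat serum, at 45608 with LZ serum and at 50059 with OZ serum. MiR-99b-5p, of the same family and second to miR-21-5p in C, was at 154925 to 176167 without, and at 117581 and 153007 with LZ and OZ serum, and it changed by -0.77 ± 0.20 (SE, edgeR adjusted p = 0.0116). MiR-21-5p was at 135518 to 190290 without, and at 75848 and 111213 with LZ and OZ serum. On TMM library sizes its ratios were 0.271 and 0.348, and in the edgeR test it fell by 1.28 on the log2 scale (SE 0.26, adjusted p = 0.00447). Its passenger arm miR-21-3p did not follow. It had ratios of 1.26 and 1.28 for LZ and OZ serum, 0.854 and 0.762 on TMM library sizes, and an edgeR adjusted p of 0.47. MiR-148a-3p and miR-152-3p share a seed and target DNA methyltransferase 1. They fell by 2.24 (SE 0.21) and 1.82 (SE 0.19) on the log2 scale, with edgeR adjusted p of 5.53e-05 and 9.34e-05. MiR-148b-3p, with that seed too, differs from miR-148a-3p at C9U and U10C and was nearly level, with ratios of 0.898 and 0.966 for LZ and OZ serum and an edgeR adjusted p of 0.903. Of the 6 members of the miR-148/miR-152 list, 4 fell and 1 rose, against 27.7% and 24% of all miRs tested.

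Both arms of miR-31a fell. MiR-31a-5p, which restrains Myf5 in quiescent muscle satellite cells of the mouse, was at 996 to 1335 RPM without rat serum and at 443 and 485 with LZ and OZ serum. MiR-31a-3p was at 60.2 to 76.0 without, and at 7.80 and 18.3 with LZ and OZ serum. MiR-224-5p and miR-452-5p, neighbours within the Gabre gene, fell as well. MiR-224-5p had 1368 reads in C, 473 with LZ serum and 343 with OZ serum. MiR-452-5p had 302, 43 and 40, and 149 to 206 in the other libraries without rat serum. In the edgeR test they changed by -2.28 ± 0.18 and -3.10 ± 0.24 (SE), at adjusted p of 2.81e-05 and 2.78e-05.

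Several miRs of lower level fell too. MiR-195-5p, of the miR-15/miR-16 seed family that slows the cell cycle, was at 41.7 to 51.3 RPM without rat serum and at 3.30 and 4.78 with LZ and OZ serum. MiR-15b-5p and miR-16-5p, which have its seed, had ratios of 1.03 and 1.35 with LZ serum, and 1.12 and 1.99 with OZ serum. On TMM library sizes the ratios of miR-15b-5p were 0.698 and 0.665. In the edgeR test over the ED-MDSC libraries it changed by -0.42 ± 0.15 (SE, adjusted p = 0.0421), and miR-16-5p did not pass (0.678). MiR-322-5p, with that seed too, changed by -1.20 ± 0.26 (SE, adjusted p = 0.0058). MiR-455-3p, from an intron of the collagen gene Col27a1, had 629 reads in C, 112 with LZ serum and 64 with OZ serum. MiR-582-3p had 457 reads in C, 118 and 33, and the level with OZ serum was 0.371 of that with LZ serum (0.244 to 0.550). MiR-1247-5p had 94 reads in C, 94 with albumin, 60 with cyclodextrin and 68 with cholesterol, and none in either serum library. Against a floor of 3 reads in the library it was at least 27.2-fold lower with LZ serum and at least 20.5-fold lower with OZ serum. MiR-204-5p, which favours fat over bone in mesenchymal stem cells, had 50 reads in C, 1 with LZ serum and 5 with OZ serum.

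With OZ serum, miR-708-5p had the highest ratio among miRs averaging 100 or more reads in the pair, and with LZ serum only the predicted entry p-miR-9 was above it. MiR-708 lies in an intron of the Tenm4 gene. MiR-708-5p had 3 reads in C, 2 with albumin, 5 with cyclodextrin, 0 with cholesterol and 0 in LD-MDSC, against 251 with LZ serum and 244 with OZ serum. MiR-708-3p had 1 to 3 reads in the libraries of ED-MDSC without rat serum, 179 with LZ serum and 173 with OZ serum. The ratios of miR-708-5p to C were 96.3 (32.6 to 470.3) and 124 (42.1 to 607) for LZ and OZ serum, wide because C held 3 reads. In the edgeR test the arms rose by 5.77 ± 0.54 (SE, adjusted p = 5.66e-05) and 5.79 ± 0.36 (1.26e-05) on the log2 scale. MiR-28-5p, the relative of miR-708-5p with the same seed, changed the other way, with 1645 reads in C, 723 with LZ serum and 585 with OZ serum, ratios of 0.506 and 0.544. MiR-383-5p was seen almost only with serum, at 95 reads with LZ serum and 152 with OZ serum, against 0 in C and 0 to 1 in the other ED-MDSC libraries. Its rise over a floor of 3 reads in C was at least 36.5-fold and at least 77.5-fold.

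MiR-10b, from the HoxD cluster, rose at a high level. MiR-10b-5p was at 3538 to 4041 RPM without rat serum, at 22816 with LZ serum and at 20168 with OZ serum, ratios of 5.65 (5.55 to 5.75) and 4.99 (4.90 to 5.08). MiR-10b-3p had 71 reads in C and 30 to 32 in the other 3 libraries without rat serum, 805 with LZ serum and 399 with OZ serum. The rises in the edgeR test were 2.02 ± 0.16 (SE) and 3.06 ± 0.25, with adjusted p of 2.84e-05 and 2.91e-05. MiR-10a-5p, from the HoxB cluster, went the other way. It was at 5748 in C, 3315 to 5614 in the other libraries without rat serum, 1887 with LZ serum and 2045 with OZ serum. The 2 miRs are nearly identical. They differ at U12A, counted from the 5′ end of miR-10a-5p, and the annotated start of miR-10b-5p is 2 bases further on, so that the annotated seeds are shifted. LD-MDSC had the same order, with 16934 RPM of miR-10b-5p and 1086 of miR-10a-5p. Its miR-10b-5p lay above C here, whereas the ratio printed in the study has it lower in LD-MDSC than in ED-MDSC.

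MiR-27b of the miR-23b/miR-27b/miR-24 cluster, which acts in fat and muscle differentiation, rose together with miR-24. The mature miR-24-3p comes from 2 loci, in that cluster and in the miR-23a/miR-27a/miR-24 cluster, and its reads cannot be assigned to either. MiR-27b-3p was at 6707 to 7178 RPM without rat serum, at 24868 with LZ serum and at 24386 with OZ serum. MiR-24-3p was at 6925 to 8321 without, and at 22745 and 23229 with LZ and OZ serum. Their TMM ratios were 2.44 and 2.23 for LZ serum, and 2.10 and 2.0 for OZ serum. MiR-23a-3p and miR-23b-3p, which differ at U19A only (from the 5′ end of miR-23a-3p), had TMM ratios of 1.43 and 1.51 for LZ serum, and 1.5 and 1.88 for OZ serum. MiR-27a-3p differs from miR-27b-3p at C19U and stayed closer to C, with TMM ratios of 1.18 and 0.916. Of 8 list members tested, 6 rose and none fell, against 24% and 27.7% of all miRs tested, with miR-27b-3p at 1.34 ± 0.14 (SE, edgeR adjusted p = 9.57e-05) and miR-24-3p at 1.08 ± 0.13 (0.000244).

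Some miRs known best from neurons were higher with rat serum. MiR-9a-5p had 23 reads in C and 4 to 11 in the other ED-MDSC libraries without rat serum, 434 with LZ serum and 178 with OZ serum. The level with OZ serum was 0.545 of that with LZ serum (0.455 to 0.65). MiR-129-5p had 23 reads in C, 215 and 141, and miR-128-3p had 336, 1652 and 828. MiR-7a-5p, on the same list, had TMM ratios of 0.732 and 0.926 for LZ and OZ serum, and miR-124-3p is listed at 0. Of the 4 list members tested 3 rose, against 24% of all miRs tested, by 3.86 ± 0.38 (SE), 3.11 ± 0.28 and 1.48 ± 0.19 on the log2 scale, with edgeR adjusted p of 7.64e-05, 4.65e-05 and 0.000375. Further rises were those of miR-504, with 15 reads in C, 161 with LZ serum and 132 with OZ serum, and of miR-125b-2-3p, with 695, 2659 and 1771. MiR-99a-5p, which is transcribed with miR-125b-2, was at 7166 to 10675 RPM without rat serum and at 31082 and 34963 with LZ and OZ serum.

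Relatives by sequence did not always move alike. In the edgeR test over the ED-MDSC libraries, 13 groups of miRs with 1 seed held at least 2 miRs past the threshold, and in 10 of them all such miRs had the same direction. The other 3 were miR-101a-3p with miR-101b-3p, miR-28-5p with miR-708-5p, and the let-7 group. Let-7b-5p, let-7c-5p and let-7d-5p rose by 0.56, 0.58 and 0.78 on the log2 scale, and let-7i-5p fell by 0.71. MiR-101a-3p rose by 0.94 ± 0.12 (SE, edgeR adjusted p = 0.000393), and miR-101b-3p changed by -1.04 ± 0.17 (0.00154). Of 75 pairs of arms from 1 hairpin, 20 had both arms past the threshold, and in all 20 the arms had the same direction. Of 26 groups of hairpins spaced by at most 10 kb, 12 held at least 2 called miRs and 9 of these had calls in a single direction. Arms and neighbours share a precursor, so they are not separate observations.

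The study lists 12 miRs related to myostatin, the inhibitor of muscle mass, chosen by their ratios between LD-MDSC and ED-MDSC C. That choice may have used the C library of the present comparison, and the list is therefore not taken as independent evidence of a direction. Of the 12, 7 fell and 2 rose in the edgeR test, against 27.7% and 24% of all miRs tested. Those that fell were miR-132-3p, miR-214-3p, miR-199a-5p, miR-199a-3p, miR-21-5p, miR-101b-3p and miR-30e-5p, and miR-101a-3p and miR-23a-3p rose. The median ratio of the list was 0.83 with LZ serum and 0.856 with OZ serum, against medians of 1.49 and 1.56 over all measured miRs. MiR-27a-3p, miR-29a-3p and miR-181a-5p did not pass, with log2 changes of 0.29, -0.15 and 0.36.

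The remaining lists are shown in the plot of the lists. The 7 measured let-7 miRs had median ratios of 1.99 and 1.41 for LZ and OZ serum, and 1.35 and 0.84 on TMM library sizes. For the miR-17/miR-92 clusters, which drive proliferation, 13 of 15 were above 1 with LZ serum and 13 of 14 with OZ serum, against 67.4% and 71.5% of all measured miRs. On TMM library sizes 8 and 9 of them were above 1, against 50.2% and 45.8%. MiR-92a-3p had a level with OZ serum 2.01-fold that with LZ serum (1.97 to 2.05). MiR-143-3p did not pass the edgeR test (log2 change -0.08 ± 0.18 SE, adjusted p = 0.745). Its TMM ratios of 1.21 and 0.798 for LZ and OZ serum lay on opposite sides of 1. MiR-29a-3p, which represses collagens, had ratios of 1.49 and 1.51, and 1.01 and 0.898 on TMM library sizes. Of 7 tested miR-181 miRs, which act in lymphocytes and muscle, 3 rose and 1 fell, against 24% and 27.7% of all miRs tested. The Dlk1-Dio3 list, imprinted miRs of stem cells and embryonic tissue, was low in reads. Of its 51 members 5 were tested, 1 rose and 1 fell, against 24% and 27.7% of all miRs tested. With OZ serum, of 8 measured, 7 were at least 2-fold higher than in C and 1 lower, against 36.8% and 14.9% of all. On TMM library sizes 3 were higher. With LZ serum 1 of 5 was higher and 1 lower, against 34% and 16.2%. Between the sera, 6 of 10 were at least 2-fold higher with OZ serum and none lower, against 14.6% and 3.48% of all. MiR-382-5p rose (8 reads in C, 18 with LZ serum and 62 with OZ serum, edgeR adjusted p = 0.0274) and miR-541-5p fell (107, 30 and 30 reads, 0.00452). MiR-409b, which is not on the list, had 21 reads in C, 64 with LZ serum and 189 with OZ serum and rose by 2.13 ± 0.62 (SE, 0.021). The p53 list (miR-34 and miR-192/miR-194/miR-215) had 3 of 6 tested members that rose and none that fell, against 24% and 27.7% of all miRs tested. Among them miR-34c-5p rose by 0.86 ± 0.20 (SE, edgeR adjusted p = 0.00813).

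**Figure D3:**
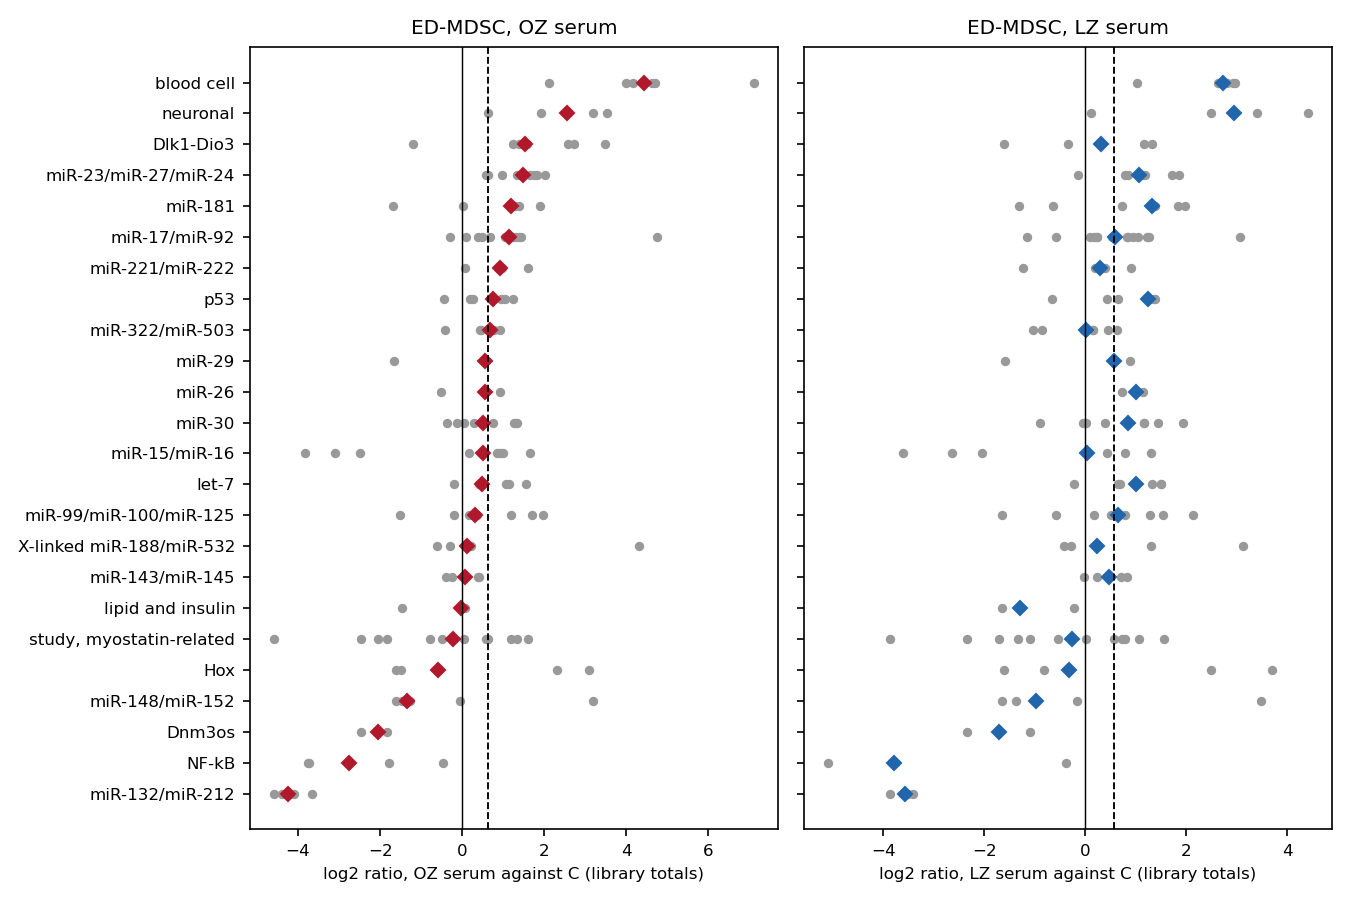
Log2 ratio to C on library totals for the measured members of 24 lists in ED-MDSC, with OZ serum (left) and LZ serum (right). Grey points are miRs, diamonds are list medians, the solid line is a ratio of 1 and the dashed line is the median of all measured miRs (0.64 and 0.57). The blood-cell list is highest in the left panel, and the miR-132/miR-212 and NF-kB lists are lowest in both.

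The blood-cell list rose with the sera and followed a pattern of its own. It holds miR-451-5p and miR-144 of red cells, miR-486, miR-142 and miR-223 of white cells, and miR-150-5p. MiR-451-5p had 606 reads in C, 1246 with albumin, 195 with cyclodextrin, 300 with cholesterol, 3705 with LZ serum, 9751 with OZ serum and 1166 in LD-MDSC. MiR-486, also made in muscle, was at 220 to 1124 RPM without rat serum, at 2226 with LZ serum and at 5144 with OZ serum. The listed miRs together were at 486 RPM in C, 365 to 1927 without rat serum, 3622 with LZ serum and 9962 with OZ serum. All 7 tested members rose in the edgeR test, against 24% of all miRs tested, with adjusted p from 0.00991 for miR-144-5p to 0.0381 for miR-150-5p. None of the 9 listed miRs was at 0 in all ED-MDSC libraries, but miR-223-3p was at 0 in C and in cholesterol, and had 18 and 45 reads with LZ and OZ serum. Against miR-451-5p, some of the others varied little over the 7 libraries of the run. MiR-142-5p made up 10.6% to 13.7% of the reads of miR-451-5p, miR-144-3p 7.18% to 9.87% and miR-363-3p, which is not on the list, 6.86% to 9.74%. MiR-486 varied 1.73-fold against it, miR-144-5p 2.38-fold and miR-150-5p 8.54-fold, and miR-223-3p ran from 0% to 0.562%. The reads of miR-16-5p, common to most cells, varied 18.3-fold against it.

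**Figure D4:**
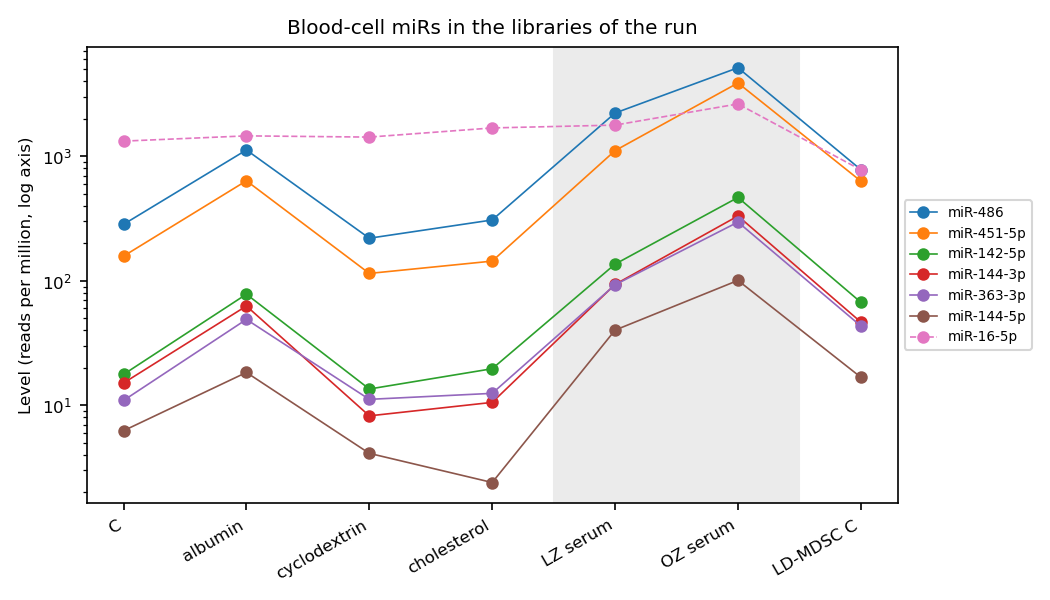
Levels of blood-cell miRs and of miR-363-3p in the 7 libraries of the run, in RPM on a log axis. The rat serum libraries are on the grey ground and miR-16-5p is dashed. The blood-cell miRs plotted have a step in albumin and LD-MDSC C and the highest values with OZ serum, while miR-16-5p stays between 778 and 2634.

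Liver-type and endothelial miRs were also higher with the sera, at lower levels. MiR-122-5p had 2 reads in C, 14 with albumin, 0 with cyclodextrin, 5 with cholesterol, 45 with LZ serum and 70 with OZ serum. The endothelial miR-126a-3p had 233 reads in C, 452 with LZ serum and 635 with OZ serum, and rose by 0.92 ± 0.27 (SE, edgeR adjusted p = 0.0224), while miR-126a-5p did not pass (0.438). The endothelial list did not follow the blood-cell list in the other libraries. It summed to 104 RPM in C, 146 with albumin, 168 with cholesterol and 50.4 in LD-MDSC. On TMM library sizes its median ratio to C was 1.30 with LZ serum and 2.12 with OZ serum. In the albumin library, where the blood-cell list was about as high as in LD-MDSC, miR-132-3p was at 321 RPM and miR-146b-5p at 53758, both within or above the range of the other libraries without rat serum. How far blood-cell miRs shaped the other ratios was not tested, and in bulk RNA fewer cells of a type and less RNA per cell cannot be told apart. Whether reads of the blood-cell, liver-type and endothelial miRs came from the cells or from the added serum was not tested. With this design these origins cannot be told apart.

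The sera differed from each other less than from C. Of 287 miRs averaging 10 or more reads in the serum libraries, 42 were at least 2-fold higher with OZ than with LZ serum (14.6%) and 10 were lower (3.48%). All 7 measured blood-cell miRs were among those higher with OZ serum, with miR-451-5p 3.49-fold (3.36 to 3.63), miR-142-5p 3.43-fold (3.08 to 3.83) and miR-144-3p 3.55-fold (3.11 to 4.05). MiR-182 and miR-96-5p, neighbours that act in sensory cells, were 3.36-fold (3.21 to 3.53) and 3.41-fold (2.72 to 4.30) higher with OZ serum. MiR-182 had 1713 reads in C, 2360 with LZ serum and 5979 with OZ serum. Its level with LZ serum, 708 RPM, lay within the 446 to 982 of the libraries without rat serum. MiR-221-5p had 19998 reads in C, 7430 with LZ serum and 13811 with OZ serum, while its partner miR-221-3p had ratios of 1.88 and 1.83. The predicted entry p-miR-9, which is not miR-9a, had 503 reads with LZ serum, 2 with OZ serum, 1 to 3 in the other ED-MDSC libraries and 924 in LD-MDSC. All 8 libraries of ND-MDSC, ZF4-SC and ZL4-SC that were compared had it at 0. The joined entry p-miR-25-1__p-miR-25-2 had 8468 reads in C, 49165 with LZ serum and 19540 with OZ serum.

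Of the miRs with enough reads in ED-MDSC, fewer differed from C with rat serum in the other stem cells. Among 149 miRs that averaged 100 or more reads in the ED-MDSC pair with LZ serum and 10 or more in each other pair, 68 differed 2-fold or more from C in ED-MDSC, 4 in ZF4-SC and 4 in ZL4-SC. With OZ serum 71 of 146 did so in ED-MDSC, 27 in ND-MDSC, 39 in ZF4-SC and 29 in ZL4-SC. After each pair was centred on its median, the counts for LZ serum were 44, 3 and 4, in the same order of cells. For OZ serum they were then 49, 27, 30 and 22. The minimum of 100 reads was set in ED-MDSC only. MiRs raised by serum there could enter through it, and miRs well read only in the other cells could not, so the set is tilted to ED-MDSC. The ED-MDSC libraries belonged to another run than those of the 3 other stem cells, and run, stem cell and, for ZF4-SC and ZL4-SC, sex and serum donors cannot be told apart. MiR-132-3p had 578 reads in C and 797 with OZ serum in ND-MDSC, 324 and 293 in ZF4-SC, and 208 and 314 in ZL4-SC. With LZ serum it had 327 reads in ZF4-SC and 171 in ZL4-SC. MiR-146b-5p had 406798 reads in ND-MDSC C and 689868 with OZ serum, a ratio near 1 for libraries of 7596708 and 13271580 reads. MiR-146a-5p was nearly missing from these cells, at 15 to 45 reads in C, against 18773 in ED-MDSC C.

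**Figure D5:**
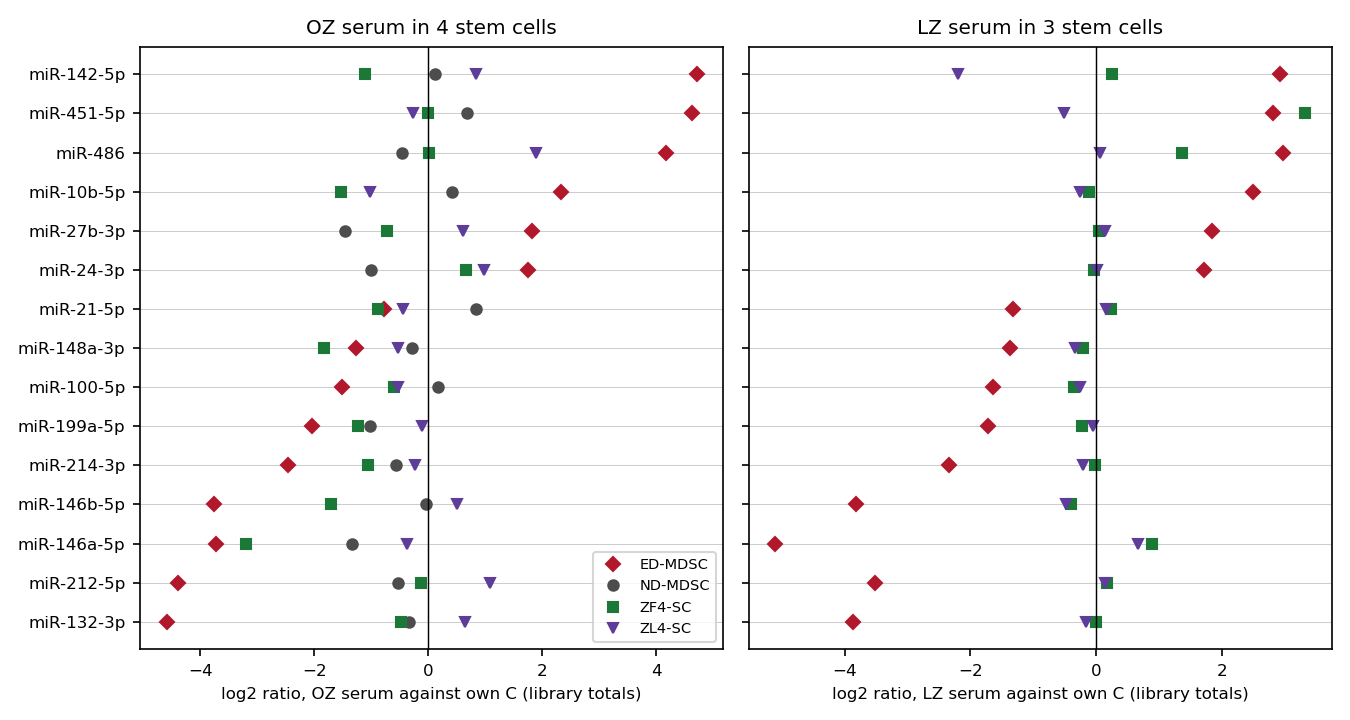
Log2 ratio of 15 miRs with OZ serum (left, 4 stem cells) and LZ serum (right, 3 stem cells) to the C library of the same cells, on library totals. Each point is a pair of single libraries. In the right panel ZF4-SC and ZL4-SC lie near 0 for most miRs, where ED-MDSC lies far from it on either side.

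The difference between stem cells was also fitted in edgeR. ED-MDSC has 1 library per condition and adds nothing to the spread, which comes from the other stem cells alone (2 residual degrees of freedom for OZ serum and 1 for LZ serum) and is assumed to hold for ED-MDSC, so that the p-values cannot show that its effect would recur. For OZ serum, the effect in ED-MDSC minus the mean effect in ND-MDSC, ZF4-SC and ZL4-SC was tested for 300 miRs, of which 2 were lower (0.667%) and none was higher at an adjusted p under 0.05. The unadjusted p was under 0.05 for 45, and DESeq2 called 10 higher and 12 lower. The called miRs were miR-212-5p, at -5.23 ± 0.71 (SE, edgeR adjusted p = 0.0124), and miR-132-3p, at -5.23 ± 0.81 (0.0161). Neither passed without ND-MDSC or without ZL4-SC, where no miR did. For LZ serum, the effect in ED-MDSC minus that in ZF4-SC and ZL4-SC was tested for 295 miRs, and 29 were higher (9.83%) and 54 lower (18.3%). In simulated data the fit for OZ serum called 1 of 30 miRs changed 4-fold and 0 of 30 changed 2-fold. The fit for LZ serum called 16 of 30 and 7 of 30, so the numbers of calls cannot be compared between the sera. The fit for LZ serum leans on the spread that edgeR pools over miRs. MiR-146b-5p differed by -3.80 ± 0.13 (SE, edgeR adjusted p = 0.00114), miR-212-5p by -4.10 ± 0.15 (0.00114) and miR-214-3p by -2.65 ± 0.15 (0.00417). MiR-10b-5p differed by 2.25 ± 0.14 (0.00417) and miR-27b-3p by 1.32 ± 0.14 (0.00866). MiR-451-5p did not pass in this test (0.814), and in ZF4-SC it had 53 reads in C and 544 with LZ serum.

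No serum effect common to the stem cells passed the threshold in edgeR. These tests can miss smaller changes, since in simulated data each called 4 of 30 miRs changed 2-fold. OZ serum against C over 4 stem cells, with the stem cell as a block, gave no miR of 300 past the edgeR threshold (0%), with 18 at an unadjusted p under 0.05, and DESeq2 called 1 higher and 3 lower. LZ serum against C over 3 stem cells gave none of 295 (0%), with 7 at an unadjusted p under 0.05 and 1 higher call by DESeq2. Without ED-MDSC, edgeR called 1 higher and 2 lower for LZ serum. MiR-708-3p had the smallest p among the rises with either serum, at 5.87 ± 0.67 (SE, edgeR adjusted p = 0.144) for LZ serum. The LZ serum effect in ED-MDSC minus that in ZF4-SC and ZL4-SC was 1.18 ± 2.26 (SE) for miR-708-3p and 8.22 ± 2.40 for miR-708-5p. Neither difference passed the threshold, and these values do not show that the rise of either arm of miR-708 is particular to ED-MDSC.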

How the data were processed

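Small RNA was sequenced by Norgen Biotek, and the authors had the reads assigned to miRs of miRBase Release 18.0. The deposited values are raw read counts per miR, with no normalization. How reads that match several miRs were assigned is not stated. The aligner and the genome build are not given in the sources used here. Of 23 library columns 15 were used, namely those of the male run and of the run with ND-MDSC, ZF4-SC and ZL4-SC. Predicted and joined entries held 0.852% of the reads of C, LZ serum and OZ serum and were kept.

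Ratios were taken on library totals and on TMM library sizes, for miRs averaging 10 or more reads in the pair, and a call needed a 2-fold ratio and an exact 95% interval without 1. Medians and log2 ratios used a pseudocount of 0.5 reads. Intervals cover counting error only, since each pair holds single libraries without replicates. The study's text names no molecular identifiers. Tests used quasi-likelihood fits in edgeR 4.0.16 (R 4.3.3), with Benjamini-Hochberg adjustment over all miRs of the fit to 0.05. DESeq2 1.42.0 was an alternative, and python 3.11.15 with scipy 1.17.1 gave the intervals. In simulated data with changes in known miRs, the test over 6 ED-MDSC libraries called 29 of 30 changed 4-fold, 15 of 30 changed 2-fold and 4 of 211 unchanged. The test of the OZ serum difference called 1 of 30 changed 4-fold, and that of the LZ serum difference 16 of 30. The tests of OZ serum over 4 stem cells and of LZ serum over 3 each called 20 of 30 changed 4-fold and 4 of 30 changed 2-fold. The steps of the simulation ran on 271, 300 and 295 miRs.

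Named miRs were the 12 highest and 12 lowest ratios of each pair (averaging 100 or more reads), the 15 most abundant in C, the 12 smallest adjusted p per direction of each test, and the measured members of the lists, with any others chosen after their values were seen. The comparison, the members and the lists were chosen with earlier results of these data known. Alternatives changed the scaling, the minimum, the threshold, the pseudocount, the tool and the libraries.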

Additional observations from a re-analysis of the deposited data

Results flagged for a closer look

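For the following miRs the edgeR fit of the difference in serum effect between ED-MDSC and the other stem cells passed the threshold. ED-MDSC has 1 library per condition, so the spread in these fits comes from the other stem cells alone, and the p-values assume that ED-MDSC varies as they do. The ED-MDSC libraries belonged to another run, and for ZF4-SC and ZL4-SC sex and serum donors differed too, so that these cannot be told apart from the cells. With OZ serum, the log2 effect in ED-MDSC minus the mean of 3 other stem cells was -5.23 for miR-212-5p and -5.23 for miR-132-3p in edgeR. Neither miR passed the threshold without ND-MDSC or without ZL4-SC.

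With LZ serum, the log2 effect in ED-MDSC minus the mean of ZF4-SC and ZL4-SC was positive for 12 of the miRs named by their p. It was 2.25 for miR-10b-5p, 4.18 for miR-9a-5p, 2.12 for p-miR-25-1__p-miR-25-2, 1.30 for miR-24-3p, 1.32 for miR-27b-3p and 3.46 for miR-10b-3p. It was 1.27 for miR-99a-5p, 1.85 for miR-125b-2-3p, 1.16 for miR-101a-3p, 2.72 for miR-129-5p, 3.51 for miR-504 and 0.98 for miR-181b-5p. The edgeR adjusted p ran from 0.00417 to 0.0206.

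The difference with LZ serum was negative for another 12. It was -6.34 for miR-146a-5p, -3.80 for miR-146b-5p, -4.10 for miR-212-5p, -2.65 for miR-214-3p, -4.23 for miR-132-3p and -1.95 for miR-221-5p. It was -1.96 for miR-21-5p, -4.10 for miR-212-3p, -2.01 for miR-199a-5p, -1.93 for miR-10a-5p, -1.53 for miR-148a-3p and -1.94 for miR-31a-5p, with edgeR adjusted p from 0.00114 to 0.00641. For miR-146a-5p the value rests on 15 to 47 reads per library in ZF4-SC and ZL4-SC.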

How the results depend on the processing

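With 1 library per condition, the ratios have no replicate check, and a ratio of low counts is held only within its counting interval. The scaling set the balance of higher and lower calls. With OZ serum against C, the 106 higher calls became 46 with TMM of the pair, 53 with TMM over 7 libraries and 53 with DESeq2 size factors. With LZ serum against C the 99 higher calls became 45, 43 and 45 under those scalings, and the 47 lower calls became 77 with TMM over 7 libraries. At a mean of at least 100 reads, where fewer miRs are measured, 56 higher and 22 lower calls were left for OZ serum, 52 and 22 for LZ serum, and 14 and 1 for OZ against LZ serum. In the test over 6 ED-MDSC libraries that minimum left 38 higher and 45 lower calls. Leaving out 1 library at a time gave 41 to 64 higher and 61 to 77 lower calls there, the 41 without the OZ serum library. Of its 140 calls, 53 passed in every setting, including the minimum of 100 reads, and none turned its direction. DESeq2 and edgeR with no filter other than 1 read gave 1 and 2 higher and 3 and 3 lower calls for OZ serum over 4 stem cells, and 1 and 1 higher calls for LZ serum over 3. For the OZ serum difference they gave 10 and 2 higher and 12 and 5 lower calls, and leaving out 1 stem cell gave 0 to 4 higher and 0 to 8 lower. Leaving out 1 stem cell gave 0 to 0 calls for OZ serum over 4 stem cells, and 0 to 1 higher and 0 to 2 lower for LZ serum over 3. For the LZ serum difference the 29 higher calls became 55 with DESeq2 size factors, 58 with no filter and 44 at a mean of 100 reads, and leaving out a stem cell was not run, since no residual degree of freedom is left. The cause of these changes was not tested. No log2 change of a named miR in these tests turned its direction, 31 gained and 4 lost the threshold, and 452 kept their side. The log2 ratios to C were less stable, for the named miRs with the highest or lowest ratios or the most reads in C. With TMM, or with the 4 libraries without rat serum as reference, 125 values lay outside the counting interval and 39 within it. No paired analysis was possible for replicates because the labels carry no replicate numbers, and the tests over several stem cells had the stem cell as the block.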
